A study of Homo sapiens with 22 samples.

Results

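The stanniocalcins STC1 and STC2 were followed through every cell population of the series. They are 2 of the 33538 genes listed for experiment 1 and of the 36601 listed for experiments 2 and 3, and both were found by symbol in all 3 tables. The pair was chosen because STC1 was lower after PI3K inhibition and because its level differed between cell states, so these contrasts are described below with no test. Experiment 1 held 12531 untreated WM989 cells, a BRAF V600E human melanoma line carrying a lentiviral lineage barcode, from 8 wells labelled r1 (wells 1 to 4) or r2 (wells 5 to 8). These cells had been sorted for EGFR and NGFR or left as a mixed control and then expanded, and all of them form 1 deposited sample. Each sorted population was loaded on 2 wells of the chip, so not every well is a separate culture, and which wells held which sort is not given by the labels. Experiment 2 held 1449 untreated cells of a second melanoma line, WM983B, in 1 library. Experiment 3 held 40021 WM989 cells in 8 libraries, 2 each (r1 and r2) of Control, TGFB1 (recombinant protein, 5 ng/mL), TGFBRi (the TGF-β receptor inhibitor LY2109761, 4 µM) and PI3Ki (the PI3K inhibitor GDC-0941, 2 µM), after 5 days. The sample labels call the 2 libraries of each treatment Mix and Primed, whereas the cells carry r1 and r2 and the methods describe repeats run side by side, so the libraries are named r1 and r2 here. The chromatin experiment held 12 ATAC-seq libraries of WM989 cells, 3 each of the sorts EGFR_High, NGFR_High, EGFR_NGFR_High and Mix. No drug aimed at BRAF or MEK was applied in any group, and every value comes from cultured lines.

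Stanniocalcins are secreted glycoprotein hormones. They were first known from bony fish, where they restrain calcium uptake, and in mammals they act mostly on nearby cells rather than through the blood. STC1 is made by many tissues, is induced by low oxygen in many tumour cells and has been tied to calcium and phosphate transport. STC2 is induced by the unfolded protein and amino acid responses through ATF4 and blocks PAPPA, the protease that releases insulin-like growth factors from IGFBP4. The primed state of melanoma cells is a rare, heritable condition in which cells survive BRAF and MEK inhibitors more often than drug-susceptible cells do.

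The deposited cell labels divide each experiment into primed and drug-susceptible cells, and the labels were checked against their markers. In experiment 1 the primed cells held 48.1 CPM of EGFR (counts scaled to 1000000 UMIs, the molecular tags that mark single transcripts) against 3.37 in drug-susceptible cells, and 7.09 CPM of SOX10 against 130. AXL was 42.3 CPM in these primed cells against 0.469. In WM983B the contrast was weaker, with 3.13 CPM of EGFR in primed cells against 2.21, 76.2 CPM of AXL against 24.2 and 192 CPM of SOX10 against 208. In experiment 3, summed over treatments, EGFR was 15.9 CPM against 1.23 and SOX10 39.6 CPM against 140. Median depth was 45287 to 111820 UMIs per cell in the wells of experiment 1, 66668 in experiment 2 and 13013 to 21720.5 in the libraries of experiment 3. Of the leukocyte markers the summed level was 0.137 to 0.273 CPM across the 3 experiments, of the keratinocyte markers 0.00583 to 0.857 CPM, of the endothelial markers 0.331 to 6.84 CPM and of the fibroblast markers 26.6 to 93.8 CPM, with all 3 members of the last 2 lists detected in each experiment. The part of these markers in the results was not tested. Libraries of experiment 3 shared 194 cell barcodes (388 cells), those of experiment 1 shared 19 (38 cells). Without the shared cells no treatment call of STC1 or STC2 changed.

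STC1 was abundant in primed and scarce in drug-susceptible WM989 cells, a contrast it was chosen for. Primed cells of experiment 1 held 65481 STC1 UMIs, or 341 CPM (95% exact Poisson interval 338 to 343). Drug-susceptible cells held 1499 UMIs, or 2.68 CPM (2.55 to 2.82). The 2843 primed cells, out of 12531 in all, carried 97.8% of the STC1 UMIs. The share of cells with an STC1 UMI was 93.2% (primed) and 8.99% (drug-susceptible), at median depths of 58253 and 52835 UMIs. When every cell was thinned to 10000 UMIs, the shares were 70.2% and 2.06%. The primed to drug-susceptible ratio was 127 (121 to 134), and of the 6316 genes that reached 20 CPM in 1 state or both 10.4% had a ratio over 2. STC1 reached that level in primed cells alone and the states were called from these same cells, so nothing is read from its place among them. All such intervals cover counting error only.

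Within the primed state of experiment 1 the 3 clusters differed among themselves. Cluster 9 held 531 CPM of STC1 (524 to 537), cluster 2 held 320 CPM (317 to 324) and cluster 8 held 118 CPM (114 to 122). Cluster 8 was also the primed cluster with the most SOX10, at 27.1 CPM against 3.35 in cluster 2 and 3.03 in cluster 9. The 8 drug-susceptible clusters ran from 1.44 CPM in cluster 5 to 3.37 CPM in cluster 4. The counting intervals of the 4 highest of these (clusters 4, 6, 3 and 10) overlapped, so no order holds among them, and cluster 5 lay below all others. The order 9, 2, 8 held in each replicate, with 288, 200 and 86.6 CPM in r1 and 703, 454 and 166 CPM in r2. The replicates themselves differed more than some neighbours in that order did, since r1 cells of cluster 9 held less than r2 cells of cluster 2.

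**Figure D1:**
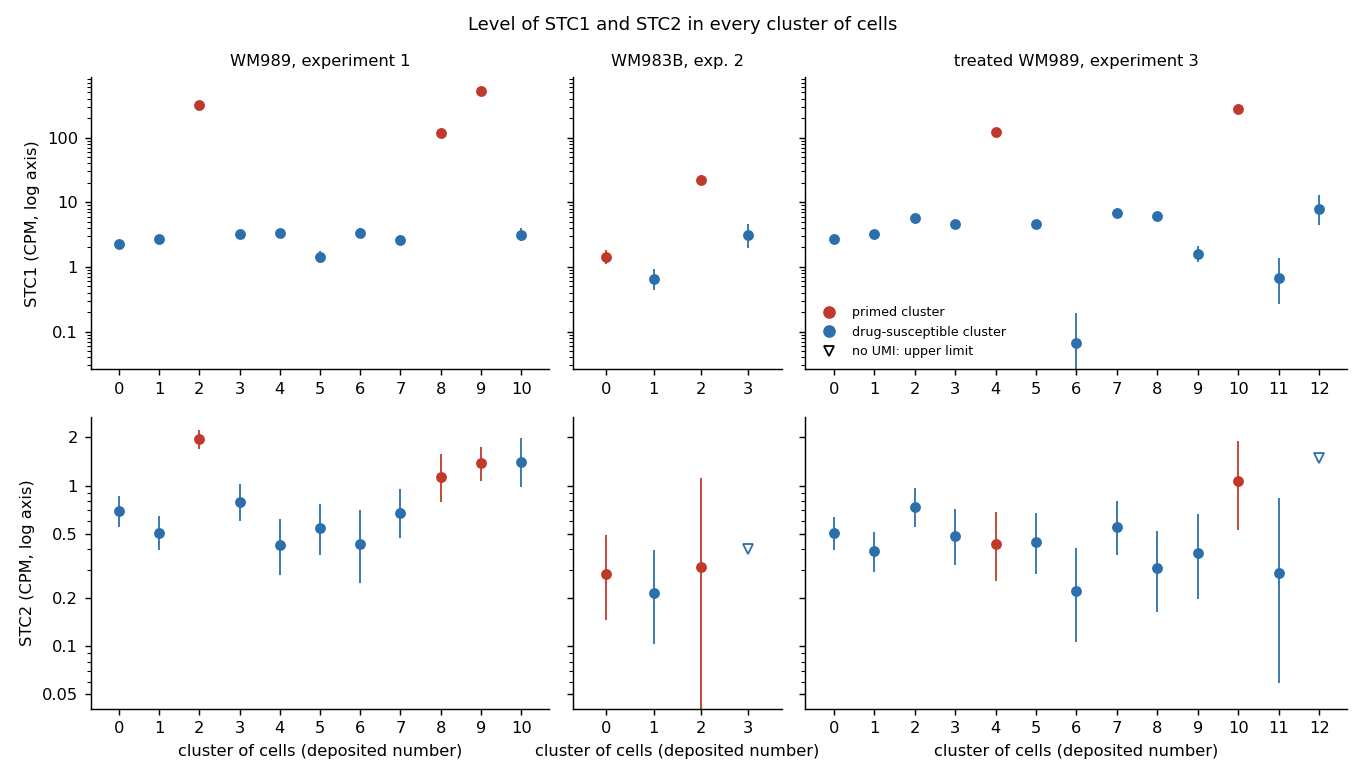
Level of STC1 (top) and STC2 (bottom) in CPM, on log axes, in each deposited cluster of the 3 single-cell experiments, with 95% exact Poisson intervals; red marks primed and blue drug-susceptible clusters, and an open triangle marks the upper limit where no UMI was seen. STC1 stands above 100 CPM in every primed WM989 cluster and below 10 CPM in every drug-susceptible one, while STC2 stays below 2 CPM throughout.

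STC1 varied widely between the wells of experiment 1. In primed cells it was 232 CPM in well 1, 210 in well 2, 94.6 in well 3 and 108 in well 4. In the r2 wells it was 573 CPM in well 5, 514 in well 6, 275 in well 7 and 248 in well 8. All 4 r2 wells stood above all 4 r1 wells, and within each replicate the 2 wells richest in primed cells stood highest (56.9 and 62.4% primed cells in wells 1 and 2, 79.7 and 76.9% in wells 5 and 6). In drug-susceptible cells the level was 1.21, 1.98, 1.82 and 1.47 CPM in wells 1 to 4. It was 12.2, 12.1, 3.15 and 3.57 CPM in wells 5 to 8, so that wells 5 and 6 stood apart. In those 2 wells 57.8% and 70.9% of drug-susceptible cells held an STC1 UMI, against 4.81 to 10.9% elsewhere. These wells were also the deepest, and after thinning the shares were 7.23 and 11.2%, against 1.03 to 2.73%. STC1 was higher in r2 than in r1 in 11 of 11 clusters, as was STC2. Of all genes with a mean of at least 1 CPM, 43.7% were higher in r2 in all 11 clusters, so this is not particular to the stanniocalcins.

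The level in drug-susceptible cells was set beside that in primed cells of the same well, since free RNA from primed cells can enter any droplet. STC1 in drug-susceptible cells was 0.520 to 2.35% of its primed level in the 8 wells. The same share was 7.84 to 16.7% for EGFR, 11.96 to 15.2% for NT5E, 1.06 to 14.1% for NGFR and 0.431 to 7.60% for AXL. The shares differed between genes of a well. That of STC1 lay below those of EGFR and NT5E in 8 of 8 wells, above that of AXL in wells 3, 4 and 6 and above that of NGFR in well 4. How much of the low STC1 signal in drug-susceptible cells was free RNA was not tested.

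**Figure D2:**
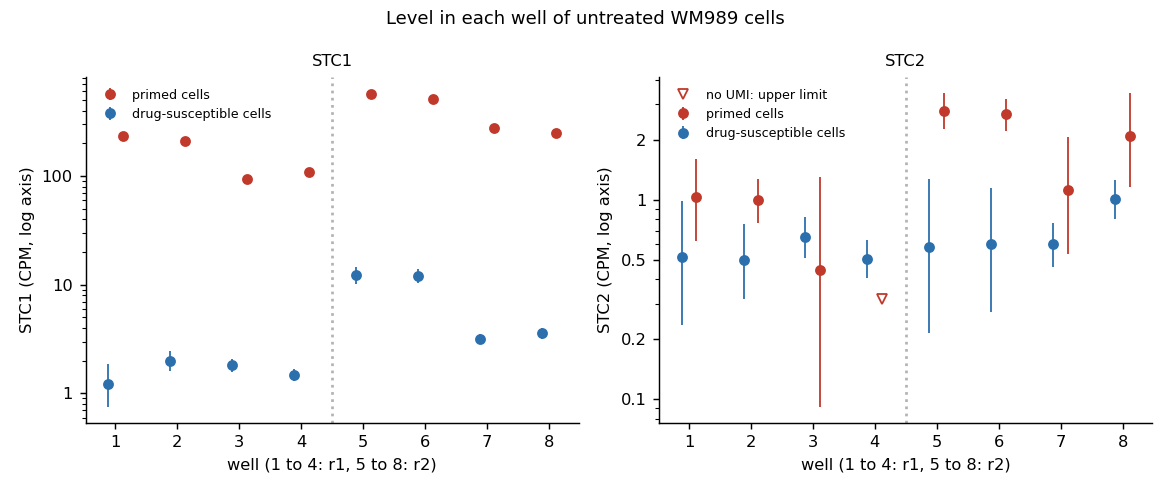
STC1 (left) and STC2 (right) in CPM, on log axes, in primed (red) and drug-susceptible (blue) cells of each of the 8 wells of experiment 1, with 95% exact Poisson intervals; the dotted line divides r1 from r2. For STC1 the primed cells lie far above the drug-susceptible cells in 8 of 8 wells, and drug-susceptible cells of wells 5 and 6 reach about 12 CPM.

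STC1 counts were unevenly spread over single primed cells. In experiment 1 the median primed cell held 148 CPM, the lower quartile 62.4 CPM, the upper quartile 340 CPM and the 99th percentile 2238.5 CPM. The 10% of primed cells with the most STC1 carried 52.7% of the primed UMIs, against 31.7% for NT5E, 35.0% for EGFR, 52.4% for AXL and 63.5% for NGFR. One cell held 563 UMIs and 193 of 2843 held none. After thinning, 1995 primed cells had an STC1 UMI and 848 had none. Those with one held 208 against 161 CPM of NT5E, 50.1 against 42.6 CPM of EGFR, 45.1 against 34.4 CPM of AXL and 30.2 against 29.7 CPM of NGFR. They held less SOX10, at 4.79 against 13.5 CPM. Within the replicates the gap in AXL was small, at 24.4 against 23.6 CPM in r1 and 62.0 against 58.2 CPM in r2, and NGFR ran in opposite directions, at 31.6 against 22.8 CPM in r1 and 29.1 against 44.8 CPM in r2. NT5E and EGFR were higher and SOX10 lower in cells with STC1 in both replicates. The cells with STC1 were also deeper (median 63199 against 51330 UMIs), and the part of depth in these differences was not tested.

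In WM983B cells STC1 was low and concentrated in 1 cluster. Primed cells held 206 UMIs, or 4.22 CPM (3.66 to 4.84), and drug-susceptible cells 53 UMIs, or 0.983 CPM (0.736 to 1.29). The ratio was 4.29 (3.16 to 5.92). STC1 was too low to be among the 6856 genes that reached 20 CPM in a state, of which 1.30% had a ratio over 2. Cluster 2, a primed cluster of 91 cells, held 145 of the 259 UMIs and reached 22.5 CPM (19.0 to 26.4). The other primed cluster, cluster 0 with 640 cells, held 1.44 CPM (1.1 to 1.85), which was below the 3.07 CPM (1.95 to 4.61) of cluster 3. That cluster is labelled drug-susceptible but held 53.2 CPM of AXL and 72.1 CPM of NT5E, against 19.5 and 35.9 CPM in cluster 1. Cluster 1 was lowest at 0.646 CPM (0.436 to 0.923). Between the primed clusters NT5E was 94.2 CPM in cluster 2 and 84.2 CPM in cluster 0, whereas AXL (45.6 and 80.8 CPM) and NGFR (42.5 and 58.1 CPM) were lower in cluster 2 and PMEL, a pigment cell gene, was higher (376 and 185 CPM).

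In experiment 3 STC1 was again highest in both primed clusters. Summed over treatments, primed cells held 153 CPM and drug-susceptible cells 3.74 CPM, a ratio of 40.8. Of the 6138 genes that reached 20 CPM in a state, 7.61% had a ratio over 2. In the Control libraries alone primed cells held 304 and 252 CPM and drug-susceptible cells 4.81 and 4.99 CPM. Cluster 10 held 277 CPM (267 to 288) in 807 cells and cluster 4 held 122 CPM (119 to 125) in 3270 cells, both summed over treatments. Within the TGFB1 libraries the order was the reverse, at 30.9 and 66.6 CPM in cluster 10 and 87.6 and 154 CPM in cluster 4. Cluster 4 was 99.5% TGFB1-treated cells and had more AXL (42.9 against 18.3 CPM), while cluster 10, with cells from all 4 groups, had more NGFR (102 against 10.2 CPM). Drug-susceptible clusters, also summed over treatments, ran from 0.0666 CPM in cluster 6 to 7.91 CPM in cluster 12, the latter on 16 UMIs (4.52 to 12.8). Within the Control libraries clusters 7 (8.48 and 8.94 CPM) and 8 (10.98 and 7.81 CPM) were above cluster 12 (7.42 and 6.48 CPM, on 2 and 3 UMIs). Cluster 6 was 88.5% PI3Ki cells and held 3 STC1 UMIs in 2531 cells (0.119% of cells). The 168 Control cells of cluster 6 held none.

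Over all cells, STC1 rose with TGFB1. The level was 9.95 CPM in Control r1 and 12.7 CPM in Control r2. It was 24.0 and 43.6 CPM in the TGFB1 libraries, both above both Control libraries. The log2 fold change was 1.52 (SE 0.118, edgeR quasi-likelihood test, adjusted p = 1.03e-09, 2 libraries per group), and 29.0% of the 18389 genes tested were called in this contrast, 16.3% as higher. Fewer cells of a type and less RNA per cell cannot be told apart in such whole-library sums, so the states were also taken separately. Primed cells were 2.26 and 4.47% of the Control libraries and 29.1 and 31.3% of the TGFB1 libraries, and they carried 52.5 and 61.8% of the STC1 UMIs in Control against 90.8 and 91.7% with TGFB1. Because STC1 was chosen partly for its level in primed cells, the whole-library test is not independent of that choice. Its result is read as a description only.

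**Figure D3:**
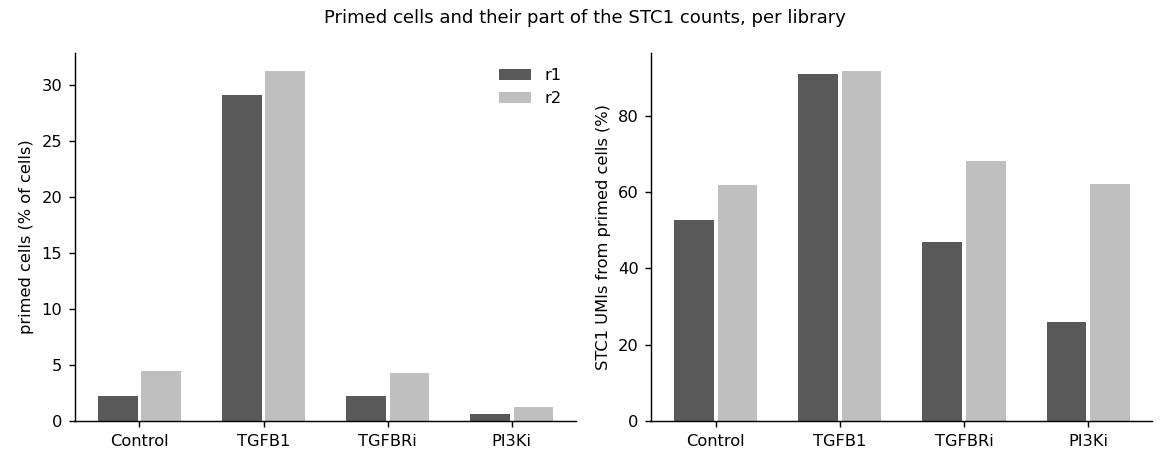
Bars give, for each library of experiment 3, the share of cells labelled primed (left) and the share of STC1 UMIs that came from those cells (right), both in percent; dark bars are r1 and light bars r2. With TGFB1 primed cells are 29.1 and 31.3% of cells and carry over 90% of the STC1 UMIs.

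Summed over primed cells, STC1 was lower with TGFB1. It was 304 and 252 CPM in the Control libraries and 86.6 and 152 CPM in the TGFB1 libraries, which did not overlap. The log2 fold change was -1.20 (SE 0.163, edgeR quasi-likelihood test, adjusted p = 3.43e-07), where 13.3% of 10930 genes were called and 7.09% as lower. It was -0.59 without Control r1 (edgeR adjusted p = 0.0297) and -1.78 without Control r2. The primed sums of Control rest on 94 and 165 cells, and those of TGFB1 on 1577 and 1757 cells. Different clusters held them, cluster 10 for most Control cells (89 and 159) and cluster 4 for most TGFB1 cells (1548 and 1706). The Control libraries also served the PI3Ki contrast that chose STC1. Neither this test nor the other STC1 tests against Control are independent of that choice. The primed result is therefore read as a description only. Within cluster 10, STC1 was 323 and 260 CPM in Control and 30.9 and 66.6 CPM in TGFB1 (29 and 51 cells). That difference was -2.57 on the log2 scale. It is an alternative chosen after the values were seen, so it is given as a description with no test. In cluster 4 the 5 and 6 Control cells held 70.3 and 63.0 CPM and the TGFB1 cells 87.6 and 154 CPM, with too few Control cells for a comparison.

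In drug-susceptible cells STC1 was 4.81 and 4.99 CPM in Control and 2.96 and 4.90 CPM with TGFB1, and the groups overlapped. The log2 fold change was -0.35 (SE 0.128, edgeR quasi-likelihood test, adjusted p = 0.0688), where 8.56% of genes were called as higher and 6.32% as lower. The difference did not pass the threshold, although 6 of the 14 alternative settings placed it past. By cluster, both TGFB1 libraries lay below both Control libraries in 5 of the 8 drug-susceptible clusters with at least 50 cells in each library, and in none above. Of all gene and cluster pairs with a Control mean of at least 1 CPM, 20.5% lay below and 21.4% above in this contrast. The cells labelled drug-susceptible in the TGFB1 libraries sat partly in a cluster of their own, cluster 3 (2182 and 1619 cells), with 3.17 and 5.60 CPM. The whole-library STC1 was highest with TGFB1 while the drug-susceptible level was not, and whether the effect of TGFB1 differed between the states was not tested by an interaction term. Endothelial markers, all 3 detected, summed to 2.81 to 3.63 CPM in the TGFB1 libraries and 0.611 to 0.679 CPM in Control, median depth was 13767 and 14284 UMIs against 18457 and 21720.5, and their part in these results was not tested.

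TGFBRi gave no call for STC1. The level over all cells was 9.22 and 21.6 CPM, with Control at 9.95 and 12.7 CPM, and the groups overlapped. The log2 fold change was 0.38 (SE 0.122, edgeR quasi-likelihood test, adjusted p = 0.111), where 2.53% of genes were called. Primed cells held 237 and 425 CPM, and drug-susceptible cells 5.0 and 7.15 CPM, against 4.81 and 4.99 CPM in Control, so that r1 lay barely above the higher Control library and r2 well above it. The log2 fold changes were 0.21 (SE 0.168, adjusted p = 0.801) and 0.31 (SE 0.117, adjusted p = 0.202) in edgeR, where 0.375% and 2.81% of genes were called. Both TGFBRi libraries lay above both Control libraries in 2 of 7 clusters. So did 15.4% of all gene and cluster pairs with a Control mean of at least 1 CPM. The r2 library was the higher one in each of these 3 sums, and the contrast turned on it. Without TGFBRi r1 the change over all cells was 0.65 (adjusted p = 0.000645), and without Control r1 0.70 (adjusted p = 0.000169). In drug-susceptible cells the same omissions gave 0.43 (edgeR adjusted p = 0.0458) and 0.54 (adjusted p = 0.0204). In primed cells the change was 0.78 without Control r1, which passed the threshold (edgeR adjusted p = 0.0322), and turned sign without Control r2 (-0.40) or TGFBRi r2 (-0.07), so neither a rise nor a lack of change was shown.

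PI3Ki is the contrast that chose STC1, and its values are a description. The level over all cells was 0.883 and 1.67 CPM, against 9.95 and 12.7 CPM in Control. Fibroblast markers summed to 21.2 and 20.8 CPM against 29.9 and 30.4, and endothelial markers to 0.313 and 0.425 CPM against 0.679 and 0.611, and their part was not tested. In drug-susceptible cells STC1 was 0.658 and 0.642 CPM against 4.81 and 4.99 CPM. In primed cells STC1 was 56.1 CPM (32.0 to 91.1) in r1 and 132 CPM (110 to 157) in r2, from 25 and 70 cells, against 304 and 252 CPM. The cells labelled primed differed in their markers too, with 14.0 and 42.5 CPM of NGFR against 79.0 and 118 CPM in Control, 7.01 and 3.11 CPM of AXL against 20.1 and 29.0, and 1686 and 1008 CPM of PMEL against 519 and 367. NT5E was 35.0 and 99.6 CPM against 90.9 and 109. Their part in the STC1 difference was not tested. The fitted log2 differences were -3.07 over all cells, -2.86 in drug-susceptible cells and -1.53 in primed cells. The primed difference rests on few cells and was -1.04 without Control r1, -2.22 without Control r2 and -2.17 without PI3Ki r2. Primed cells were 0.647 and 1.21% of the PI3Ki libraries and 2.26 and 4.47% of Control. Among all genes, 1.87% fell more than 2-fold over all cells and 0.955% in drug-susceptible cells. Of all gene and cluster pairs with a Control mean of at least 1 CPM, 29.9% had both PI3Ki libraries below both Control libraries. STC1 did so in 6 of the 7 clusters with enough cells. In the 2 largest, cluster 0 ran from 0.646 to 0.886 CPM against 3.18 to 3.55 CPM, and cluster 1 from 0.498 to 0.811 CPM against 4.07 to 4.20 CPM. In the exception, cluster 9, the groups overlapped, since Control r1 held no UMI there. Cluster 3, with too few PI3Ki cells to be counted, ran the other way in r2, where 52 cells held 18 UMIs (23.6 CPM).

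**Figure D4:**
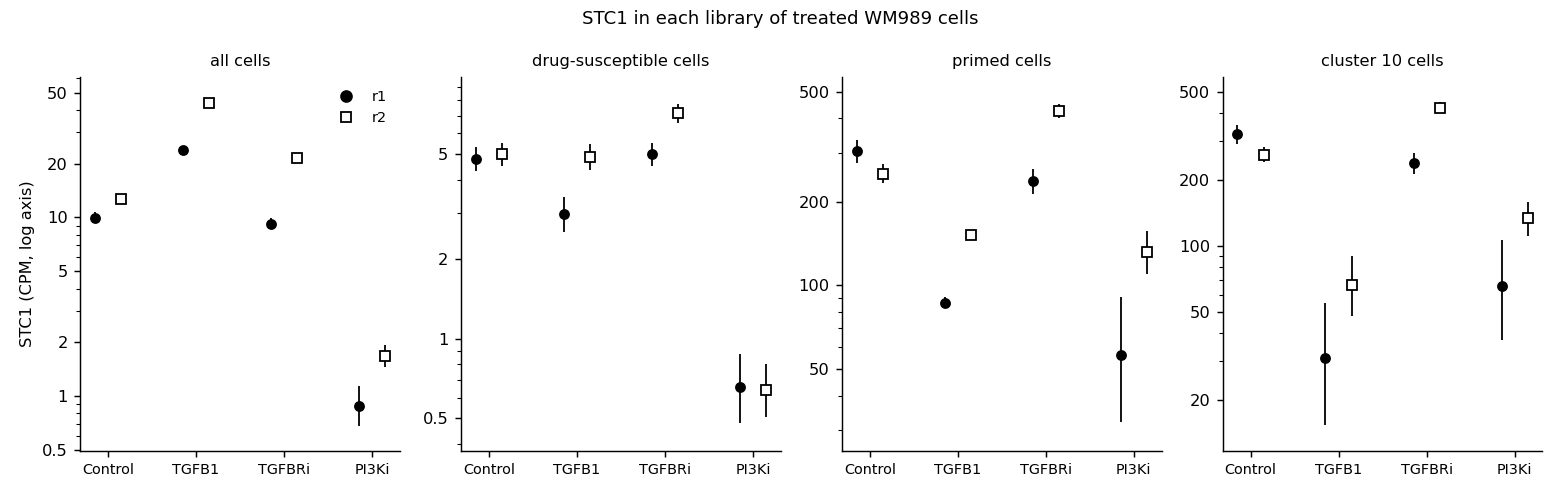
STC1 in CPM, on log axes whose range differs between panels, in each library of experiment 3, over all cells, drug-susceptible cells, primed cells and the cells of cluster 10; filled circles are r1, open squares r2, and bars are 95% exact Poisson intervals. TGFB1 stands above Control over all cells and below it in primed cells and in cluster 10, while PI3Ki is lowest over all cells and in drug-susceptible cells.

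STC1 also varied with the cell cycle phase that the authors assigned. The choice of genes did not name this label, but it used the clusters, which can follow the phase. The phase values are therefore a description, not independent of that choice. Drug-susceptible cells in G2M held 5.26 CPM (4.94 to 5.60) against 2.83 CPM (2.61 to 3.07) in G1 and 3.31 CPM (3.09 to 3.56) in S. The G2M level was above the G1 level in 8 of 8 libraries, a pattern that 29.7% of genes with a mean of at least 1 CPM shared. Primed cells held 230 CPM in G2M and 115 CPM in G1, with G2M higher in 7 of 8 libraries, where 11.2% of genes with a mean of at least 1 CPM were higher in at least 7. The exception, PI3Ki r1, had 4 primed G2M cells and no STC1 UMI in them. STC2 was higher in G2M in 4 of 8 libraries in drug-susceptible cells and in 2 of 8 in primed cells. In drug-susceptible cells of experiment 1 the level was 3.26 CPM in G2M (3.001 to 3.54), 2.83 CPM in G1 (2.55 to 3.14) and 2.21 CPM in S, and the first 2 intervals overlapped. Its primed G2M cells held 502 CPM, G1 cells 310 CPM and S cells 286 CPM. Drug-susceptible WM983B cells held 1.44 CPM in G2M and 0.296 CPM in G1, the latter on 4 UMIs. In primed WM983B cells the order was the reverse, at 2.02 CPM in G2M and 7.10 CPM in G1, on 34 and 114 UMIs, 91 of the latter from the 48 G1 cells of cluster 2.

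STC2 was near the limit of detection in all 3 experiments. It gave 674 UMIs (0.898 CPM) in experiment 1, 24 UMIs (0.234 CPM) in experiment 2 and 321 UMIs (0.468 CPM) in experiment 3. In experiment 1 primed cells held 1.68 CPM (1.498 to 1.87) and drug-susceptible cells 0.630 CPM (0.566 to 0.6997), a ratio of 2.66 (2.28 to 3.10). That ratio was 1.56 in r1 cells and 3.35 in r2 cells, and by well the primed level was 2.80 and 2.68 CPM in wells 5 and 6 and at most 2.08 CPM in the others. Primed cells were higher in 6 of 8 wells. In well 3 they held 0.443 CPM against 0.650 CPM, and the 263 primed cells of well 4 held no STC2 UMI against 0.506 CPM. By the floor of 3 counts used for zeros, those cells allow up to 0.317 CPM (0.390 CPM is the upper end of the 95% exact Poisson interval). Cluster 2 was highest at 1.95 CPM (1.70 to 2.23), followed by clusters 10, 9 and 8 at 1.41, 1.38 and 1.13 CPM. The interval of cluster 10 (0.978 to 1.97), a drug-susceptible cluster, overlapped that of cluster 2, and the order was not the same in the replicates. In r1 cells cluster 10 was highest at 1.33 CPM, then cluster 2 at 1.18, while the primed clusters 9 and 8 held 0.497 and 0.267 CPM, within the range of the drug-susceptible clusters or below it. In r2 cells clusters 2, 8 and 9 led at 2.82, 2.45 and 2.01 CPM, with cluster 10 at 1.68 CPM. In WM983B the intervals of the states overlapped, with 14 UMIs in primed and 10 in drug-susceptible cells. In experiment 3, on WM989 again and summed over treatments, they overlapped too, at 0.557 CPM (0.373 to 0.800) in primed and 0.461 CPM (0.410 to 0.517) in drug-susceptible cells. In its Control libraries alone primed cells held 0.745 and 1.61 CPM, on few UMIs, and drug-susceptible cells 0.469 and 0.553 CPM.

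The treatments of experiment 3 gave no call for STC2. Over all cells it was 0.474 and 0.586 CPM in Control, 0.338 and 0.719 CPM with TGFB1 and 0.436 and 0.481 CPM with TGFBRi. The edgeR log2 fold changes were -0.02 (SE 0.253, adjusted p = 0.964) for TGFB1 and -0.19 (SE 0.259, adjusted p = 0.833) for TGFBRi. With PI3Ki it was 0.370 and 0.368 CPM, a fitted log2 difference of -0.45 given with no test, and the counting intervals overlapped those of Control. Both PI3Ki libraries lay below both Control libraries in 1 of 7 clusters. The 29.9% given above covers pairs with a Control mean of at least 1 CPM. STC2 was below that level in most clusters, so that share is no measure for it. The 2 TGFB1 libraries lay on either side of Control. These sums rest on 26 to 61 UMIs per library, and the smallest change that could be called at this depth was not measured. Primed cells held 29 STC2 UMIs in all 8 libraries together and did not pass the filter on low counts. Both genes were seen in the same cell rarely, and after thinning 18 of the 27 STC2-positive primed cells of experiment 1 (66.7%) also held STC1, beside 70.2% of all primed cells.

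Genes of the pathways in which the stanniocalcins act were then counted over all cells, from lists chosen with earlier results of these data known. With TGFB1, 29.0% of all genes tested were called, 16.3% as higher and 12.7% as lower, and the median log2 fold change of all genes was 0.01. In drug-susceptible cells 8.56% were called as higher and 6.32% as lower, and in primed cells 6.21 and 7.09%. Of the insulin-like growth factor axis 9 of 13 members were tested, and 2 rose and 2 fell, with a median of 0.14. IGFBP5, a binding protein, rose by 2.88 (edgeR adjusted p = 3.20e-17) and the receptor substrate IRS1 by 1.30, while IGFBP2 fell by 0.56 and the scavenger receptor IGF2R fell by 0.27. PAPPA, the protease that STC2 blocks, had a log2 fold change of 0.38 (SE 0.420, edgeR adjusted p = 0.547), and IGFBP4, its substrate, did not pass the filter. With TGFBRi, where 1.09% of all genes rose and 1.45% fell, IGFBP2 was the 1 member that rose, by 0.64. In drug-susceptible cells 2 members rose and 1 fell with TGFB1, and in primed cells 1 of 8 rose and 3 fell.

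Of the hypoxia list 14 of 15 genes were tested, and 6 rose and 0 fell with TGFB1, with a median log2 fold change of 0.17. ANGPTL4, a lipase inhibitor, rose by 4.23 (edgeR adjusted p = 2.53e-10), NDRG1 by 1.36, the angiogenic factor VEGFA by 1.06 and the peptide hormone ADM by 0.61. Without the replicate block 3 of the list were called. In drug-susceptible cells alone 3 rose and 5 fell, with a median of -0.05, and in primed cells 1 of 13 rose and 3 fell. With TGFBRi 6 members fell and none rose, with a median of -0.29, where 1.45% of all genes fell. The glucose transporter SLC2A1 fell by 0.48 and BNIP3, a mitophagy receptor, fell by 0.38. STC1 itself, often grouped with these genes, rose with TGFB1 over all cells but was not among those that fell with TGFBRi.

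Of the calcium and phosphate handling genes 14 of 15 were tested, and 7 rose and 1 fell with TGFB1, with a median log2 fold change of 0.14. The phosphate importer SLC20A1 rose by 0.67 (edgeR adjusted p = 3.78e-08), the plasma membrane calcium pump ATP2B4 by 0.64, and the calcium channel subunits ORAI3 and ORAI2 by 0.48 and 0.43. UCP2, a mitochondrial carrier, was the 1 that fell. The 8 calls became 5 without the replicate block or with DESeq2. In drug-susceptible cells alone 4 rose and 1 fell, and in primed cells none rose and 2 of 13 fell. With TGFBRi 2 members fell, SLC20A1 by 0.41 and ATP2B4 by 0.35, and none rose. CASR, the calcium-sensing receptor, did not pass the filter.

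The 2 stress lists hold genes of the responses known to induce STC2. Of the integrated stress response 14 of 15 genes were tested, and 1 rose and 6 fell, with a median log2 fold change of -0.15. The 1 rise was small and near the threshold (0.18, edgeR adjusted p = 0.0353), and DESeq2 called 6 genes of the list in all. The cystine transporter SLC7A11 fell by 1.998 (edgeR adjusted p = 1.12e-12), the asparagine synthetase ASNS fell by 0.78, the kinase-like TRIB3 fell by 0.58 and VLDLR fell by 0.44. In drug-susceptible cells 9 fell and none rose, where 6.32% of all genes fell, and in primed cells 7 of 13 fell and none rose. With TGFBRi 5 rose and none fell, where 1.09% of all genes rose, among them SLC7A11 by 0.57 and the transcription factor ATF3 by 0.50. Of the endoplasmic reticulum unfolded protein response 12 of 12 were tested, and 4 rose and 0 fell with TGFB1, with a median of 0.13. That share of the list is near the 29.0% of all genes called. XBP1, its transcription factor, rose by 0.43 (edgeR adjusted p = 1.90e-05), DNAJB9 by 0.27, HERPUD1 by 0.23 and the chaperone HSPA5 by 0.21. In drug-susceptible cells 4 also rose and none fell, while in primed cells 4 fell and none rose, where 7.09% of all genes fell. The count over all cells was 2 without the replicate block and 1 without Control r1, Control r2 or TGFB1 r1. With TGFBRi edgeR called 0 of the 12 (2 at an unadjusted p under 0.05) and DESeq2 called 0. STC2 did not pass the threshold in either contrast.

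Genes with a pattern like that of STC1 were sought over the 11 clusters of experiment 1 and the 13 of experiment 3, among 6389 genes. Likeness was the lower of the Pearson correlations of log2(CPM + 1) in each, given as a description, since clusters of an experiment share libraries and were defined from these genes. VEGFA came first (r = 0.98 in both), followed by the calcium pump ATP2B1 (0.98 and 0.98), CDC42EP3 (0.98 and 0.97), RASSF8 (0.97 and 0.97) and the urokinase receptor PLAUR (0.99 and 0.96). VEGFA ran from 7.68 to 309 CPM in experiment 1 and from 4.93 to 109 CPM in experiment 3, highest in clusters 9 and 10, as STC1 was when summed over treatments. Of the primed markers EGFR gave 0.97 and 0.93, NGFR 0.93 and 0.91, NT5E 0.99 and 0.88 and AXL 0.99 and 0.87, so that AXL and NT5E were closer to STC1 than VEGFA was in experiment 1 and less close in experiment 3, and SOX10 gave -0.97 and -0.72. For STC2 the nearest gene was MOSPD1 (0.86 and 0.77), then PHF20, ARHGAP35, SH3GLB1 and LZTS2, and STC1 and STC2 gave 0.77 and 0.53. STC2 itself ran only from 0.424 to 1.95 CPM over the clusters of experiment 1 and from 0 to 1.07 CPM in experiment 3. Counting error thus enters its correlations, and its part in them was not tested.

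Accessibility at the gene starts was compared between sorts from the peak lists of the 12 ATAC-seq libraries. The sorts are not the states of the single-cell experiments, and where the labels say Mix, the methods describe cells negative for both markers. STC1 (ENSG00000159167.12) lies on chromosome 8 from 23841929 to 23854806 on the minus strand (hg38) and has 4 exons. A peak within 500 bp of its start was called in 12 of 12 libraries. The fold enrichment of the highest one was 5.82, 3.77 and 7.74 in Mix, 5.98, 8.98 and 5.87 in EGFR_High, 5.57, 5.69 and 7.05 in NGFR_High and 7.74, 9.92 and 7.94 in EGFR_NGFR_High. The means were 5.78 ± 1.99 (SD, n = 3), 6.94 ± 1.77, 6.10 ± 0.825 and 8.53 ± 1.21, and each sort overlapped Mix, EGFR_NGFR_High only where its lowest library and the highest Mix library met at 7.74. In two-sided exact permutation tests p was 0.4 for EGFR_High, 1 for NGFR_High and 0.2 for EGFR_NGFR_High against Mix, and 0.48, 1 and 0.4 after adjustment over 6 tests. With 3 libraries a side no p below 0.1 can be reached. The STC1 start peak was among the weaker ones called. By library, 60.8 to 63.0% of protein-coding starts had a peak. The STC1 value stood above 38.7 to 44.1% of all starts, those without a peak included. A second region in 12 of 12 libraries lay upstream, from 23859365 to 23859739, outside the gene. The region at the start spanned from 23853742 to 23854957. Of the regions within 20000 bp of the gene, 2 in its introns were called in 2 of the 3 EGFR_NGFR_High libraries and in none of the other sorts, which is too few libraries for a comparison.

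**Figure D5:**
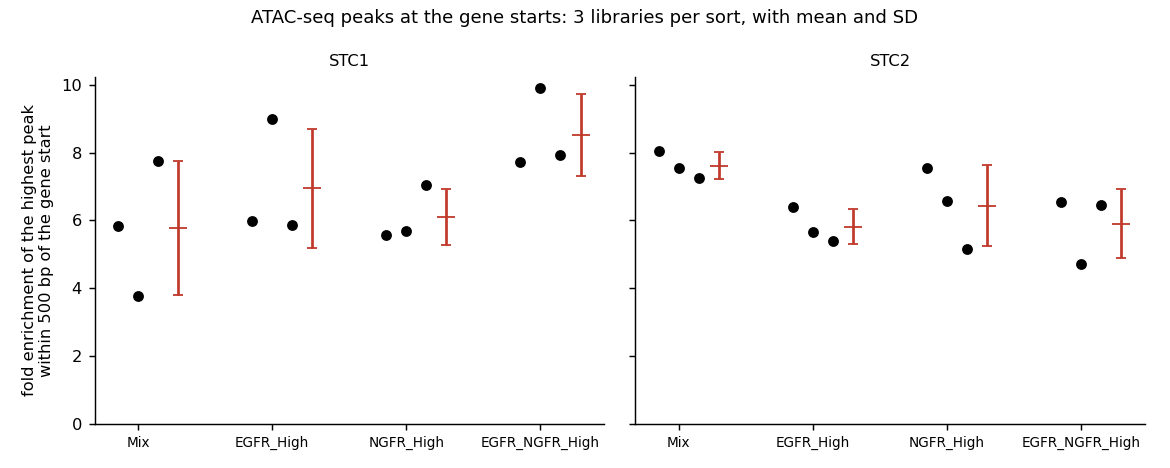
Fold enrichment of the highest ATAC-seq peak within 500 bp of the start of STC1 (left) and STC2 (right); each point is 1 of 3 libraries per sort, and the red bar gives the mean with its SD. For STC1 the sorts overlap Mix, and for STC2 the EGFR_High and EGFR_NGFR_High libraries lie below the 3 Mix libraries.

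For STC2 the start peak was called in 12 of 12 libraries as well and was lower in 2 of the sorts. It was 8.06, 7.54 and 7.26 in Mix, 6.40, 5.67 and 5.38 in EGFR_High, 7.56, 6.56 and 5.17 in NGFR_High and 6.55, 4.73 and 6.45 in EGFR_NGFR_High. The differences from Mix were -1.80, -1.19 and -1.71. EGFR_High and EGFR_NGFR_High did not overlap Mix, where 10.8% and 2.47% of all starts with a peak lay wholly below Mix. Two-sided exact permutation tests gave p = 0.1, 0.3 and 0.1, and 0.3, 0.45 and 0.3 after adjustment, so no difference passed the threshold. This start peak too was among the weaker ones called, above 39.2 to 43.1% of all starts by library. The RNA of the states in experiment 1, which are not these sorts, is given above.

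STC2 (ENSG00000113739.11) has 4 exons and lies on the minus strand of chromosome 5, from 173314723 to 173328447 (hg38). Its start peak, from 173328270 to 173328884, covers the promoter, which is shown here. The STC1 start peak was also called in 12 of 12 libraries, but the set of promoters used held none for STC1, so none is shown. The sequence is that of RefSeq (GRCh38.p14, chr5:173328365-173328664, minus strand), with 250 bases before and 50 after the start used there. That start is not the gene start at 173328447 given above but lies a short way inside the gene. It is 64% G or C, above 64.0% of the 35116 promoters in the table, and holds 28 CpG pairs against a median of 14. Capitals mark ACGTG or GCGTG on either strand, the core that hypoxia-inducible factors bind, and a CCAAT box.
STC2 promoter: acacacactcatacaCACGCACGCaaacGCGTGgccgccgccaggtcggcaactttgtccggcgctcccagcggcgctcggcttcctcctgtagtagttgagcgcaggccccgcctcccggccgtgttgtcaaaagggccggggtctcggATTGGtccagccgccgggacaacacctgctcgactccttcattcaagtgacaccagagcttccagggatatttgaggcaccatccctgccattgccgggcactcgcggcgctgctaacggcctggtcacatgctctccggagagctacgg
The hypoxia core has 3 matches, the first 2 of them sharing a base, and 48.4% of promoters hold at least 1. The CCAAT box has 1 match on the reverse strand, and 34.6% of promoters hold it. TGATGNAA, a form of the amino acid response element, has 0 matches in this window (3.62% of promoters hold it), as has the AP-1 site TGANTCA (7.71%). The other regions called in 12 of 12 libraries near STC2 lay upstream, from 173331856 to 173332331, and over an exon, from 173315936 to 173316609. A region downstream of the gene, from 173302485 to 173302782, was called in 9 of 12 libraries, with a fold enrichment of 10.4 to 14.6 in 3 EGFR_NGFR_High libraries, 5.57 to 9.62 in 3 NGFR_High libraries, at most 5.98 in 2 EGFR_High libraries and 7.26 in 1 Mix library. It was singled out after its values were seen and was not tested.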

How the data were processed

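The deposited single-cell matrices hold UMI counts that the authors made with Cell Ranger on hg38, aggregating libraries without depth normalization and filtering cells in Seurat. Clusters, states, phases and the percent of mitochondrial counts are the deposited labels. ATAC-seq peaks were called by the authors per library, with Bowtie2 2.3.4.1 and MACS2 2.1.1.20160309, and their deposited columns give the fold enrichment, a ratio, and the -log10 q-value. No doublets were removed here. The experiment 3 libraries are named by the cell labels r1 and r2. Their link to single sample records was not settled. The edgeR SEs and p-values rest on a spread between these libraries that was estimated with information from all genes. They are therefore not the spread of STC1 or STC2 alone, which 2 libraries per group measure poorly.

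CPM was computed from summed counts per population, with 95% exact Poisson intervals. Per library and state, with at least 20 cells, sums were tested in edgeR 4.0.16 (TMM, filterByExpr, treatment plus replicate, Benjamini-Hochberg adjustment, threshold 0.05), which left 3 residual degrees of freedom. DESeq2 1.42.0 was an alternative. Between treatments, the r2 minus r1 differences correlated at 0.323 to 0.547 over all cells, and by the methods plates of a replicate share 1 parent well, so the replicate number was a block (0.0205 to 0.148 in primed cells). Peaks were compared by exact permutation. Named genes were, beside STC1 and STC2, up to 4 (TGFB1) or 2 (TGFBRi) members of each list past the threshold with the largest change, the 5 most alike genes and the state markers. PAPPA, IGFBP4, CASR and UCP2 were named outside this rule, with their values known. Members and lists were chosen with earlier results of these data known.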

Additional observations from a re-analysis of the deposited data

How the results depend on the processing

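Each result was recomputed under other settings, 335 values for 30 results, of which 289 were counted as unchanged. For tested genes that meant the same direction and the same side of the threshold, or no adjusted p. For PI3Ki and the ratios it meant staying within the spread or interval of the main value. For the lists it meant a similar number of calls, and for the peaks the same sign only. For STC1 with TGFB1 the log2 fold change kept its sign in every setting. It ran from 1.17 to 1.85 over all cells and from -1.78 to -0.59 in the primed sums. The -2.57 from 1 primed cluster taken alone is left out of that range. That setting was chosen after the values were seen and is given with no test. All these differences are read as a description only. Without the replicate block the TGFB1 difference of STC1 was 1.56 over all cells (edgeR adjusted p = 0.00811) and -1.14 in primed cells (edgeR adjusted p = 0.0026). Leaving the block out changed no call of either gene. In drug-susceptible cells the TGFB1 difference passed the threshold with no filter on low counts (-0.37), with only the groups compared (-0.35) and without Control r2 (-0.60), TGFB1 r2 (-0.59), TGFBRi r1 (-0.34) or TGFBRi r2 (-0.35). Leaving out 1 library gave -0.60 to -0.13, the last without Control r1 (edgeR adjusted p = 0.702). For TGFBRi, STC1 passed over all cells with no filter (0.39) and with only the groups compared (0.37). Leaving out 1 library gave 0.023 to 0.70 over all cells, 0.063 to 0.54 in drug-susceptible cells and -0.40 to 0.78 in primed cells, with sign changes in the last and a call without Control r1. PI3Ki differences of STC1 in drug-susceptible cells ran from -3.12 to -2.62 when 1 library was left out, a range wider than the spread between the replicates, and from -2.22 to -1.04 in primed cells.

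STC2 turned sign when 1 library was left out, from -0.56 to 0.33 over all cells and -0.55 to 0.50 in drug-susceptible cells for TGFB1, and from -0.33 to 0.046 in drug-susceptible cells for TGFBRi. Its PI3Ki difference ran from -0.63 to -0.18 over all cells and from -0.58 to -0.15 in drug-susceptible cells, smallest without PI3Ki r2. Without a filter, STC2 in primed cells had -1.15 (SE 1.06) with TGFB1 and -0.95 (SE 1.38) with TGFBRi. The cause of these changes was not tested. Calls in the lists with TGFB1 numbered 2 (unfolded protein response), 3 (hypoxia) and 5 (calcium and phosphate) without the block, and 8 (unfolded protein response) with only the groups compared. DESeq2 gave 5 for calcium and phosphate. Leaving out 1 library gave 1 to 7 calls for the unfolded protein response and 4 to 8 for calcium and phosphate.

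The primed to drug-susceptible ratio in experiment 1 was 120 and 113 for STC1, and 1.56 and 3.35 for STC2, in r1 and r2 cells. For STC2 it was 2.14 as a mean per cell. The STC1 start peak in NGFR_High against Mix turned to -1.46 with a window of 5000 bp and to -2.58 with a -log10 q of at least 10. Without 1 replicate it ran from -0.47 to 0.83, for EGFR_High from -0.86 to 2.68 and for EGFR_NGFR_High from 1.05 to 4.03. The EGFR_NGFR_High difference was 1.21 with a window of 5000 bp and 5.95 with a -log10 q of at least 10. A peak that failed the q-value cut counted as 0, so differences under that cut include lost peaks. The window of 5000 bp takes in the region upstream of either gene. Neither setting is thus a second measure of the start peak alone. For the STC2 start peak the differences of EGFR_High, NGFR_High and EGFR_NGFR_High from Mix kept their sign but not their size. They were -3.79, -0.45 and -3.93 with a window of 5000 bp and -7.62, -5.10 and -5.44 with a -log10 q of at least 10. The -7.62 is the whole Mix mean of 7.62, since no EGFR_High peak passed that cut. Without replicate 3 the NGFR_High difference was -0.74. The replicate numbers of the ATAC-seq libraries did not pair them (correlations of -0.0660 to 0.107), and the replicate block allowed no p below 0.25.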
